A study of Danio rerio with 6 samples.

Results

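The Hox cluster genes of zebrafish (Danio rerio) larvae were taken as every row of the count table whose symbol begins with hox, a cluster letter from a to d and a digit, with each symbol counted once. This gave 48 of 14612 genes, all of them among the 13336 genes with enough counts to test. All had a gene number that matched the RefSeq table of the GRCz12tu assembly. RefSeq lists 50 Hox genes, pseudogene included, and 2 of them are not in the count table. The 48 genes fall into 7 clusters (hoxaa, hoxab, hoxba, hoxbb, hoxca, hoxcb and hoxda) and 13 paralog groups. Paralog groups number the genes by their place along a cluster, so that genes with the same number in different clusters descend from one ancestral gene.

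Hox genes encode homeodomain transcription factors that give cells their position along the head-to-tail axis. They are switched on in the order in which they lie in the cluster, the low numbers first and towards the head, the high numbers later and towards the tail, and many stay active in the hindbrain, spinal cord, fins and gut of the larva. The extra a and b clusters of zebrafish come from the genome duplication at the base of the teleost fishes, after which many of the duplicated genes were lost.

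The libraries came from pools of 33 to 35 whole larvae at 7 days post fertilization, 3 pools in medium with dissolved nucleotides at 10 µM and 3 pools in embryo medium without them (0 µM). Neither the strain nor the identity of the nucleotides is stated by the labels, and nothing says whether the pools came from separate clutches, so the spread behind every p-value is that among these pools and may be technical. The headers of the count table name carbon monoxide in front of the exposed libraries, while the labels name nucleotides; the library names that follow match the labels, which are used here, and the mismatch was not resolved. Totals ran from 25792829 to 31556366 counts in the nucleotide libraries and from 18690465 to 23066970 in the control libraries.

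In whole larvae a lower level can come from fewer cells of a type or from less RNA per cell, and these cannot be told apart here. Levels are given as CPM, each count set against its library's total, with library sizes adjusted by edgeR's TMM method. A level is thus a share, which also depends on the other RNA in the library. The TMM factors did not overlap, at 0.913 to 0.999 in the nucleotide libraries and 1.03 to 1.06 in the control libraries. Levels are not corrected for transcript length, so they are compared between groups of libraries for one gene and not between genes. The sources do not say how reads that fit more than one gene were counted. In the RefSeq annotation of GRCz12tu, a later build than the GRCz10 named in the submitters' processing notes, the spans of 18 Hox genes overlap another Hox gene. These include the 4 genes of paralog group 3, whose long spans run across their neighbours, and hoxb1b, which runs across hoxb5b and hoxb6b. Counts of these genes are therefore uncertain where exons overlap.

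Hox transcripts were, on the whole, somewhat scarcer in the nucleotide pools. The levels of all 48 genes summed to 698, 668 and 628 CPM in the nucleotide libraries, against 789, 721 and 748 CPM in the control libraries. Every nucleotide library lay below every control library. The sums averaged 665 ± 34.7 CPM in nucleotide pools and 753 ± 34.5 CPM in control pools (SD, n = 3 each), a ratio of 0.883. A sum over genes chosen with results of these data known has no test here. Of the 48 genes, 40 had a fitted log2 fold change (nucleotide over control) below 0, or 83.3%, against 52.6% of all tested genes. The median was -0.15 over the Hox genes and -0.01 over all tested genes. Under scaling by library totals alone the median of all genes moved to -0.14 and that of the Hox genes to -0.27. A change of scaling moves all genes by nearly the same amount. The distance between the medians, -0.14 under both scalings, could therefore hardly change.

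No single Hox gene passed the threshold in edgeR without pairing under TMM scaling. In edgeR's quasi-likelihood test with Benjamini-Hochberg adjustment over all genes, 0 of 48 had an adjusted p under 0.05, against 0.99% of all tested genes (0.937% higher and 0.0525% lower). At an unadjusted p under 0.05 there were 10 lower and 1 higher, or 20.8% and 2.08%, against 6.19% and 8.3% of all tested genes. DESeq2 called 2 lower, hoxc12a and hoxd3a, where it called 0.735% of all genes lower, and 0 higher, where it called 2.99% of all genes higher (3.73% in either direction). At an unadjusted p under 0.05 DESeq2 had 10 Hox genes lower and 0 higher, against 5.57% and 8.15% of all genes. With the replicate number as a block, 10 Hox genes fell and 0 rose. That is 20.8% of them, where the blocked fit called 8.38% of all tested genes lower and 10.7% higher, or 19.1% in either direction. At an unadjusted p under 0.05 the blocked fit had 14 lower and 1 higher, or 29.2% and 2.08%, against 16.2% and 17.1% of all tested genes. The 10 were hoxb1b, hoxb2a, hoxa3a, hoxb3a, hoxd3a, hoxa4a, hoxb6a, hoxa9b, hoxb9a and hoxc12a. Of these, 6 (hoxb1b, hoxa3a, hoxb3a, hoxd3a, hoxa4a and hoxb6a) are among the 18 genes whose spans overlap another Hox gene, and 4 are not. Without the 2 libraries numbered 3, the blocked fit called only hoxc12a and hoxd3a. Without those numbered 1 it did not call hoxa9b and hoxb9a, and without those numbered 2 it did not call hoxa4a and hoxb1b but called hoxa1a (edgeR adjusted p = 0.04998). Same-numbered libraries deviated together over all genes (correlations of 0.546 to 0.625), but over the 48 Hox genes alone the 3 correlations were 0.0784, 0.25 and -0.168.

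**Figure D1:**
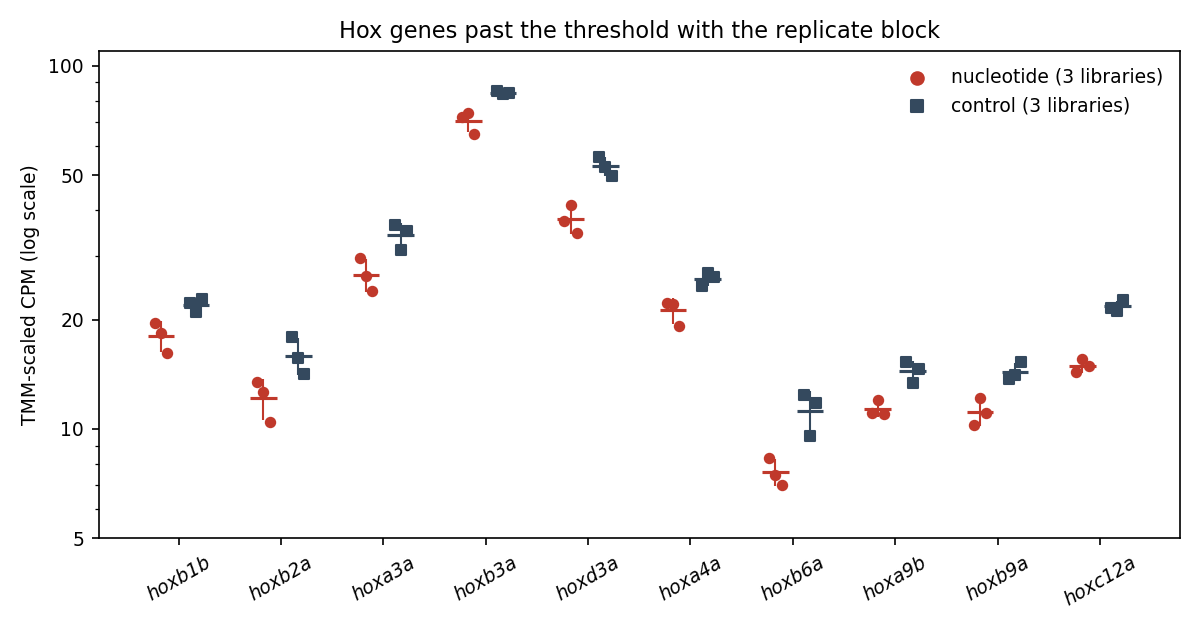
TMM-scaled level (CPM, log scale) of the 10 Hox genes past the threshold with the replicate block, in each nucleotide library (red circles) and each control library (dark squares); horizontal lines are means and vertical lines SD (n = 3). The 10 genes are shown because that fit called them, all as lower, so low nucleotide values follow largely from the choice. In all 10 genes the nucleotide libraries lie below the control libraries, where 37.5% of all Hox genes and 9.89% of all tested genes do. For hoxd3a the nucleotide values are 34.7 to 41.5 CPM and the control values 49.8 to 56.2 CPM.

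For 18 Hox genes the 3 nucleotide libraries all lay below the 3 control libraries (37.5%, against 9.89% of all tested genes), and for 2 they all lay above (4.17%, against 11.5%). The differences were small. The 95% intervals of the log2 fold change of 47 genes lay within a doubling and a halving, that is between -1 and 1, and those of 24 genes lay between -0.5 and 0.5. The exception was hoxa1a, whose interval ran from -1.01 to 0.09. Standard errors (SE) ran from 0.0872 to 0.307 with a median of 0.137. Counts per library ran from 32 to 2075, and 8 genes had a mean level under 5 CPM, where counting error is largest.

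Paralog groups 1 to 3, the anterior class that patterns the hindbrain and the pharyngeal arches, had the lowest median of the classes compared, at -0.30. All 10 of its members had a fitted log2 fold change below 0, and 5 fell with the block, against 52.6% and 8.38% of all tested genes. Over all 48 Hox genes the shares were 83.3% and 20.8%. The summed level of the class was 251, 247 and 212 CPM in the nucleotide libraries, against 294, 276 and 283 CPM in the control libraries. The groups did not overlap, and nucleotide library 3 was the lowest of the 6. The ratio of the means was 0.833. Leaving out any 1 library kept the median between -0.39 and -0.20, and the value nearest 0 came without nucleotide library 3.

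In paralog group 3, hoxd3a (NCBI gene 30349) had 37.4, 41.5 and 34.7 CPM in the nucleotide libraries and 56.2, 52.5 and 49.8 CPM in the control libraries. The 2 sets of values are well apart, so any pairing of them shows the lower level in the nucleotide pool. The log2 fold change was -0.48 ± 0.101 (SE), or 0.716 times the control level, with an edgeR adjusted p of 0.082 without the block and 0.00103 with it. In mouse, Hoxd3 shapes the first neck vertebrae.

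The level of hoxa3a (58049) was 29.5, 26.4 and 23.9 CPM in the nucleotide libraries and 36.4, 31.1 and 35.0 CPM in the control libraries. In mouse, Hoxa3 is needed for the thymus, parathyroid and other derivatives of the third pharyngeal arch. The log2 fold change was -0.36 ± 0.114 (SE; edgeR adjusted p = 0.205, and 0.0109 with the block). hoxb3a (30339) had 72.4, 74.0 and 65.0 CPM in the nucleotide libraries and 85.1, 83.5 and 84.0 CPM in the control libraries. Its control values agree closely with one another, and its ratio was 0.836 (edgeR adjusted p = 0.233, and 0.017 with the block). hoxc3a (30421), the member of this group in the hoxca cluster, had 56.5, 52.8 and 44.6 CPM in the nucleotide libraries and 52.0, 50.4 and 53.1 CPM in the control libraries. Its groups overlapped, with a log2 fold change of -0.02 and a 95% interval from -0.26 to 0.23.

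This group weighs heavily in the sum, since it held 28.0% of summed Hox CPM in the nucleotide libraries and 29.7% in the control libraries. Without it, the other 44 genes summed to 502, 474 and 460 CPM in the nucleotide libraries and 560, 503 and 526 CPM in the control libraries. The groups still did not overlap, and the ratio was 0.903. The 30 Hox genes whose spans overlap no other Hox gene in RefSeq also had a ratio of 0.903, with a median log2 fold change of -0.10, and the 18 that do overlap had 0.87 and -0.20.

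Paralog groups 1 and 2 hold the genes that set up the hindbrain segments (rhombomeres). hoxb1b (30374), which acts early in the hindbrain under the control of retinoic acid, had 19.6, 18.4 and 16.1 CPM in the nucleotide libraries and 22.2, 21.0 and 22.8 CPM in the control libraries. The groups did not overlap, and the log2 fold change was -0.29 ± 0.111 (SE; edgeR adjusted p = 0.289, and 0.0499 with the block). Its duplicate hoxb1a (30337), which gives the fourth rhombomere its identity, lay at 2.37, 1.65 and 1.32 CPM in the nucleotide libraries and 1.87, 2.49 and 2.34 CPM in the control libraries, with overlap. hoxb2a (30338) had 13.4, 12.6 and 10.4 CPM in the nucleotide libraries and 17.9, 15.7 and 14.2 CPM in the control libraries, a ratio of 0.764 (edgeR adjusted p = 0.278, and 0.018 with the block). Its nucleotide values lay below all control values. hoxa2b (30325), which gives the second pharyngeal arch its identity, overlapped between the groups, at 13.3, 12.3 and 10.4 CPM in the nucleotide libraries and 14.1, 12.0 and 13.2 CPM in the control libraries. hoxa1a (58051) and hoxc1a (58046) had log2 fold changes of -0.46 ± 0.238 and -0.01 ± 0.211 (SE) and also overlapped.

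**Figure D2:**
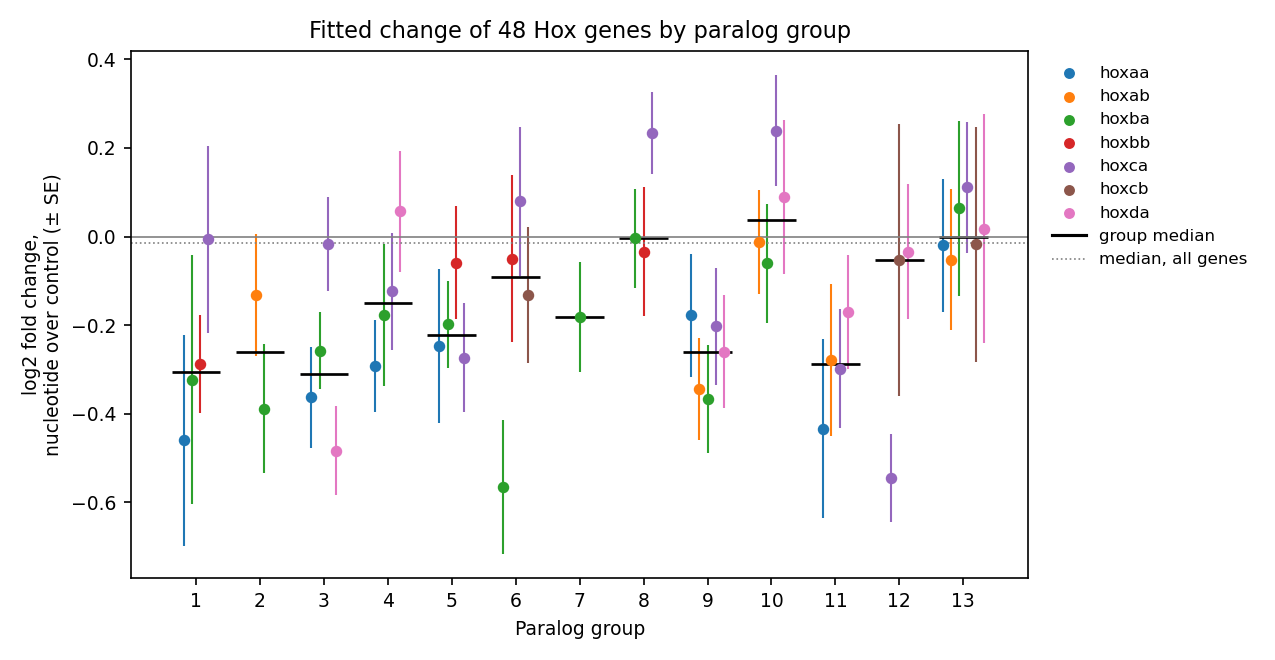
Fitted log2 fold change (nucleotide over control) of each of the 48 Hox genes with its SE, by paralog group on the x axis and coloured by cluster; black bars are group medians and the dotted line is the median of all tested genes. Medians lie at -0.30, -0.26 and -0.31 in groups 1 to 3, at -0.26 in group 9 and -0.29 in group 11, and at or near 0 in groups 8, 10 and 13.

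Paralog groups 4 to 8 are the central class, which patterns the posterior hindbrain, the pectoral fin level and the anterior trunk. Their median was -0.13. Of the 16 members 13 were below 0 and 2 fell with the block, against 52.6% and 8.38% of all tested genes. With any 1 library left out the median lay between -0.17 and -0.05, the value nearest 0 without nucleotide library 3. Summed levels were 242, 221 and 209 CPM in the nucleotide libraries and 256, 232 and 239 CPM in the control libraries. These overlapped, since nucleotide library 1 lay above 2 of the control libraries.

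Among these, hoxb6a (30341), whose span overlaps that of hoxb3a, had the largest fitted decrease of all 48 genes. Its level was 8.30, 7.49 and 7.01 CPM in the nucleotide libraries and 12.4, 9.54 and 11.8 CPM in the control libraries. No values overlapped, and the ratio was 0.676, a log2 fold change of -0.57 ± 0.151 (SE; edgeR adjusted p = 0.151, and 0.00897 with the block). The duplicate hoxb6b (58053) had 5.83, 5.47 and 5.49 CPM in the nucleotide libraries, inside the control range of 4.85 to 7.29 CPM. hoxa4a (58050) had 22.3, 22.1 and 19.2 CPM in the nucleotide libraries and 24.7, 26.9 and 26.2 CPM in the control libraries, with no overlap (log2 fold change -0.29 ± 0.103 SE; edgeR adjusted p = 0.252, and 0.0355 with the block).

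The Hox5 genes act at the level of the pectoral fin. Of these, hoxb5a (30317) had 35.3, 32.4 and 30.7 CPM in the nucleotide libraries and 40.4, 35.7 and 36.8 CPM in the control libraries, without overlap. Its log2 fold change of -0.20 ± 0.098 (SE) did not pass in edgeR with or without the block (adjusted p = 0.409, and 0.0737 with the block). Its duplicate hoxb5b (58052) overlapped, at 25.5, 21.8 and 19.5 CPM in the nucleotide libraries and 24.5, 21.2 and 23.9 CPM in the control libraries. hoxc5a (30379) lay between 8.09 and 9.07 CPM in the nucleotide libraries and between 10.1 and 10.8 CPM in the control libraries, so that it too did not overlap. Its edgeR adjusted p was 0.361, and 0.124 with the block.

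Paralog group 8 had a median of -0.00, with 2 of 3 members below 0. hoxc8a (449648), whose mouse counterpart marks motor neurons at the forelimb level, had 22.7, 23.1 and 22.9 CPM in the nucleotide libraries and 19.9, 20.1 and 18.5 CPM in the control libraries. It was 1 of the 2 Hox genes with every nucleotide library above every control library, and its span overlaps that of hoxc3a. Its log2 fold change was 0.23 ± 0.0928 (SE; edgeR adjusted p = 0.307, and 0.0715 with the block), so it passed in neither fit. hoxb8a (30343) had 24.6, 21.5 and 22.7 CPM in the nucleotide libraries and 25.6, 21.4 and 22.1 CPM in the control libraries, and hoxb8b (30420) had a log2 fold change of -0.03. Both overlapped fully. The summed level of the group had a ratio of 1.06 under TMM, which turned to a change of -2.33% under library totals.

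Paralog groups 9 to 13, the posterior class of the trunk, tail and fins, had a median of -0.06. Of the 22 members 17 were below 0 and 3 fell with the block, against 52.6% and 8.38% of all tested genes. With any 1 library left out the median lay between -0.13 (without nucleotide library 2) and -0.07. Summed levels were 205, 200 and 208 CPM in the nucleotide libraries and 239, 214 and 226 CPM in the control libraries, with no overlap and a ratio of 0.901. The class was uneven. Groups 9, 11 and 12 had ratios of 0.829, 0.842 and 0.761, with no overlap between the libraries in any of the 3 sums, while groups 10 and 13 had 1.03 and 1.02 under TMM, with overlap, and changes of -5.17% and -6.4% under library totals. Most of the group 12 difference lay in hoxc12a, since the other 2 members had log2 fold changes of -0.03 and -0.05 and overlapped.

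The gene with the smallest p among the 48 was hoxc12a (562600), a gene of the tail end of the axis. It had 14.3, 15.6 and 14.9 CPM in the nucleotide libraries and 21.5, 21.1 and 22.6 CPM in the control libraries. The spread within each group is small beside the gap between them. The log2 fold change was -0.54 ± 0.0994 (SE), with a 95% interval from -0.77 to -0.32, or 0.685 times the control level. Its adjusted p was 0.0561 in edgeR without the block, 0.00193 with it and 0.00213 in DESeq2. It passed in edgeR without the block under upper quartile scaling and under library totals, and it was the only Hox gene to do so. The authors' deposited table gives it an adjusted p of 0.00208 and hoxd3a one of 0.00733. Of the 43 Hox genes with an adjusted p there, only these 2 are under 0.05. How many of the 12011 genes with an adjusted p there are under 0.05 was not counted. The 2 Hox genes therefore have no share of all genes beside them. The duplicate of hoxc12a, hoxc12b (58062), lay at 1.85, 1.69 and 3.02 CPM in the nucleotide libraries and 2.90, 2.12 and 1.80 CPM in the control libraries. These levels are too low to bound a change closely (95% interval from -0.76 to 0.65).

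All 5 genes of paralog group 9 had a fitted change below 0, from -0.37 to -0.18, where 83.3% of all Hox genes were below 0. hoxa9b (58048) had 11.1, 12.0 and 11.0 CPM in the nucleotide libraries and 15.3, 13.4 and 14.6 CPM in the control libraries (edgeR adjusted p = 0.231, and 0.0428 with the block). hoxb9a (30344) had 10.2, 12.2 and 11.0 CPM in the nucleotide libraries and 13.7, 14.1 and 15.3 CPM in the control libraries (edgeR adjusted p = 0.229, and 0.0312 with the block). Neither overlapped between the groups. hoxd9a (30350) did not overlap either, at 12.5 to 15.6 CPM in the nucleotide libraries and 16.2 to 18.4 CPM in the control libraries, but it passed in neither edgeR fit (adjusted p = 0.402, and 0.0763 with the block). hoxa9a (58047) and hoxc9a (58043) had log2 fold changes of -0.18 and -0.20 and overlapped.

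Paralog group 11, which in mouse shapes the middle segment of the limb and the kidney, also had all 4 members below 0. Their median was -0.29, and 3 of them, hoxa11a, hoxc11a and hoxd11a, did not overlap. The margin was narrow for hoxd11a, at 12.6 to 13.7 CPM in the nucleotide libraries and 13.8 to 17.3 CPM in the control libraries. Its log2 fold change was -0.17 ± 0.129 (SE). Of all Hox genes 83.3% were below 0, and for 37.5% the nucleotide libraries all lay below the control libraries. hoxc11a (30403) had 8.13, 7.45 and 9.10 CPM in the nucleotide libraries and 9.84, 9.85 and 10.7 CPM in the control libraries. hoxa11a (58061) had 2.30, 2.50 and 1.91 CPM in the nucleotide libraries and 3.20, 2.80 and 3.05 CPM in the control libraries. No member of this group passed in edgeR, and the smallest adjusted p was 0.363 without the block and 0.097 with it, both for hoxc11a.

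Group 10, between these, had other values. hoxc10a (100535576), whose mouse counterpart marks the hindlimb level of the spinal cord, had 11.8, 12.9 and 13.6 CPM in the nucleotide libraries and 11.6, 9.90 and 10.8 CPM in the control libraries. It was the other Hox gene with no overlap and higher nucleotide values, by a narrow margin (log2 fold change 0.24 ± 0.126 SE; edgeR adjusted p = 0.441, and 0.168 with the block). hoxd10a (30404) was higher by 0.06 to 0.12 on the log2 scale in each same-numbered pair, but varied more between numbers (15.8, 11.8 and 15.7 CPM in the nucleotide libraries and 15.2, 10.9 and 14.6 CPM in the control libraries). hoxa10b (30391) and hoxb10a (58056) had log2 fold changes of -0.01 ± 0.118 and -0.06 ± 0.135 (SE). hoxc8a and hoxc10a were the only Hox genes with a fitted change above 0 under library totals, and both lie in the hoxca cluster.

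Group 13, the last of the cluster, includes hoxa13a, hoxa13b and hoxd13a, which are needed for the outer part of the paired fins. Its 6 members had log2 fold changes from -0.05 to 0.11 and all overlapped between the groups. The highest was hoxc13a (58059), with 8.34, 7.41 and 8.99 CPM in the nucleotide libraries and 8.39, 7.72 and 6.81 CPM in the control libraries. hoxd13a (30407) and hoxc13b (58063) lay between 1.66 and 3.01 CPM in all libraries. hoxd12a (100006598), the remaining member of group 12, had a log2 fold change of -0.03 ± 0.153 (SE).

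**Figure D3:**
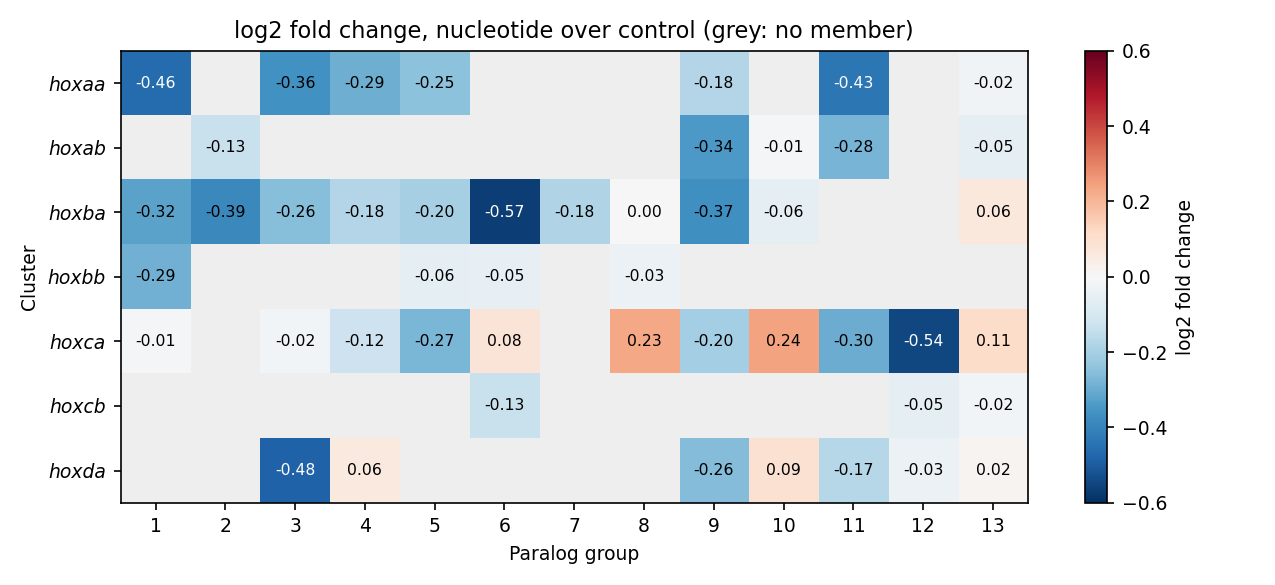
Fitted log2 fold change (nucleotide over control) of each Hox gene, with clusters as rows and paralog groups as columns. Blue is lower and red higher in the nucleotide pools. Grey marks places with no gene in the count table, whether or not the genome has one. The hoxaa row runs from -0.46 to -0.02 with no value above 0, and the hoxca row from -0.54 to 0.24 with 4 of 11 above 0.

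By cluster, the hoxaa genes had the lowest median, -0.29 over 7 genes, followed by hoxba with -0.20 over 11 genes and hoxab with -0.13 over 5. The 7 hoxaa genes summed to 84.9, 78.4 and 72.9 CPM in the nucleotide libraries, against 99.5, 88.8 and 100 CPM in the control libraries. The 11 hoxba genes summed to 211, 204 and 190 CPM in the nucleotide libraries, against 242, 228 and 232 CPM in the control libraries. Neither sum overlapped, and 2 hoxaa and 4 hoxba genes fell with the block, where 20.8% of all Hox genes and 8.38% of all tested genes did. The hoxca cluster had a median of -0.02 over 11 genes, with 178, 173 and 163 CPM in the nucleotide libraries and 188, 172 and 178 CPM in the control libraries. These overlapped, and 1 of its genes, hoxc12a, fell with the block. The hoxda cluster had a median of -0.03 over 7 genes and a sum ratio of 0.843, most of it from hoxd3a. The hoxbb and hoxcb clusters, with 4 and 3 genes, had medians of -0.05 each. The medians of hoxca, hoxcb and hoxda turned above 0 when single libraries were left out, with their highest values without nucleotide library 3 (hoxca, 0.05), nucleotide library 1 (hoxcb, 0.06) and control library 1 (hoxda, 0.03). Differences between clusters were not tested.

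Along the paralog groups, the log2 fold change had a Spearman rho of 0.331 with the group number over the 48 genes. This is a description across genes that share the same 6 libraries and, within a cluster, overlapping spans. The medians did not run in order, with -0.26 in group 9 and -0.29 in group 11, against -0.30, -0.26 and -0.31 in groups 1 to 3.

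**Figure D4:**
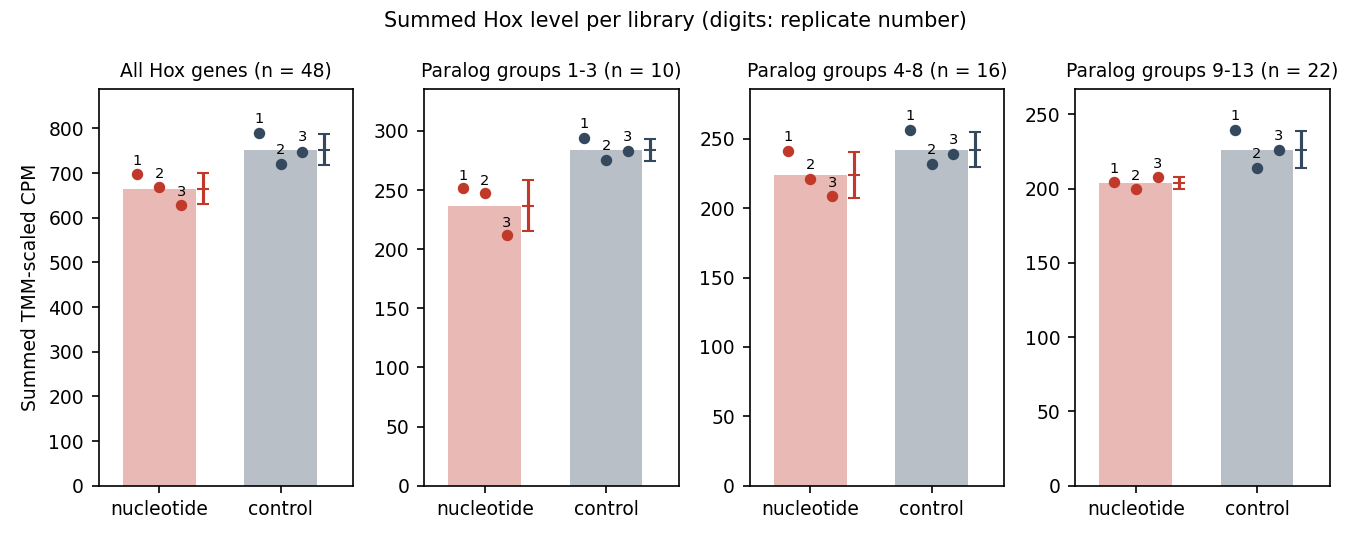
Summed TMM-scaled CPM of all 48 Hox genes and of the anterior (paralog groups 1 to 3), central (4 to 8) and posterior (9 to 13) classes, for nucleotide (red) and control (grey) libraries; bars are means, bracketed lines SD (n = 3), points single libraries with their replicate number. Nucleotide libraries lie below control libraries in the sum of all genes (628 to 698 against 721 to 789 CPM) and in the anterior and posterior classes, and overlap them in the central class.

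Of the 10 pairs of duplicates with the same number that the count table holds, both copies had fitted values below 0 in 8. Counted gene by gene, 83.3% of all Hox genes and 52.6% of all tested genes were below 0. The copies were close in hoxb1 (-0.32 for hoxb1a and -0.29 for hoxb1b), hoxb8 (-0.00 and -0.03) and hoxa13 (-0.02 and -0.05). They were furthest apart in hoxb6 (-0.57 ± 0.151 for hoxb6a and -0.05 ± 0.189 for hoxb6b, SE) and hoxc12 (-0.54 ± 0.0994 for hoxc12a and -0.05 ± 0.307 for hoxc12b, SE). The differences within pairs were not tested.

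The clusters also hold microRNA genes of the miR-10 and miR-196 families. Their 10 rows held 48 counts in all over the 6 libraries, with at most 6 in any one, and none was tested. No sequence of these or of the Hox genes is shown.

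Partners and regulators of Hox genes were counted beside the shares of all genes called with the block, 10.7% higher and 8.38% lower. In edgeR without the block 0 members of these lists passed, where 0.99% of all tested genes did. The 6 lists held 10, 11, 26, 11, 28 and 14 tested genes. At an unadjusted p under 0.05, 8 of these genes were higher and 6 lower, where 8.3% and 6.19% of all tested genes were. DESeq2 called 4 higher and 1 lower, where it called 2.99% and 0.735% of all tested genes. Of 10 tested cofactors of the Pbx, Meis and Pknox families, which bind DNA together with Hox proteins, 1 rose with the block and 0 fell. This was pbx1a, at 22.0, 22.9 and 22.6 CPM in the nucleotide libraries and 17.6, 17.5 and 14.9 CPM in the control libraries (log2 fold change 0.43 ± 0.107 SE; edgeR adjusted p = 0.123, and 0.00694 with the block). The next list held 11 ParaHox genes and homeobox genes that flank the clusters or resemble those that do. Of these, 2 fell with the block, mnx1 (-0.54) and evx1 (-0.42), and 9 had values below 0, against 52.6% of all tested genes. The values of evx1 overlapped, at 6.73, 6.28 and 4.48 CPM in the nucleotide libraries and 9.08, 8.34 and 5.93 CPM in the control libraries. Its edgeR adjusted p was 0.448 without the block and 0.045 with it. mnx1, a motor neuron gene, had 4.68, 5.47 and 5.52 CPM in the nucleotide libraries and 8.22, 8.03 and 6.56 CPM in the control libraries.

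Retinoic acid switches on the anterior Hox genes. Of 28 tested genes of its pathway 4 rose with the block and 0 fell. The enzyme gene aldh1a2, which makes retinoic acid, had 36.9, 42.6 and 39.2 CPM in the nucleotide libraries and 29.8, 29.2 and 31.8 CPM in the control libraries (log2 fold change 0.39 ± 0.0946 SE; edgeR adjusted p = 0.122, and 0.00599 with the block). cyp26c1, whose enzyme breaks it down, had a log2 fold change of 0.40 ± 0.12 (SE; edgeR adjusted p = 0.19, and 0.0142 with the block), and the receptor gene rxrbb one of 0.26. Of 14 tested regulators of the body axis 1 rose and 1 fell with the block. mafba, needed for the fifth and the sixth rhombomeres, had 65.5, 65.0 and 66.3 CPM in the nucleotide libraries and 51.7, 46.0 and 40.9 CPM in the control libraries (edgeR adjusted p = 0.0764, and 0.00103 with the block). egr2b, which marks the third and the fifth rhombomeres, had 7.71, 7.37 and 9.79 CPM in the nucleotide libraries and 12.5, 10.7 and 10.4 CPM in the control libraries (edgeR adjusted p = 0.261, and 0.0415 with the block). The values of both genes did not overlap between the groups, and they lay in opposite directions.

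Polycomb proteins keep Hox genes silent and Trithorax proteins keep them active. Of 26 tested Polycomb group genes 2 rose and 2 fell with the block, with a median of 0.00. The core gene eed had a log2 fold change of -0.37, and cbx8b and bmi1b had 0.33 and 0.29. Of 11 tested Trithorax group genes 1 rose and 2 fell with the block. Within the same complex wdr5 had 0.39, while rbbp5 had -0.50 and ash2l -0.24. rbbp5 had 51.7, 43.3 and 44.4 CPM in the nucleotide libraries and 71.3, 63.3 and 62.5 CPM in the control libraries (edgeR adjusted p = 0.0852, and 0.000342 with the block).

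Markers of the cell types in a whole larva are given beside the shares of all genes called with the block (10.7% higher and 8.38% lower). In edgeR without the block these shares were 0.937% and 0.0525%, and 8.3% and 6.19% at an unadjusted p under 0.05. In DESeq2 they were 2.99% and 0.735%. Without the block, edgeR called 1 gene of the 7 lists, the neuron gene tubb5 (log2 fold change 1.57, adjusted p = 0.0155). Many Hox genes are active in hindbrain and spinal cord neurons. Of 12 markers of these cells 9 had values below 0, where 52.6% of all tested genes did. With the block 4 fell and 0 rose, among them mnx1, which is also counted above with the ParaHox and flanking genes. Another was slc6a5, the glycine transporter of inhibitory neurons (69.4, 70.1 and 75.2 CPM in the nucleotide libraries and 75.2 to 95.8 CPM in the control libraries). Without the block edgeR called 0 of these 12 markers, with 3 lower and 0 higher at an unadjusted p under 0.05, and DESeq2 called 0. Their summed level was 511 to 570 CPM in the nucleotide libraries and 537 to 631 CPM in the control libraries, with overlap. Of 13 tested general neuron markers 7 rose and 0 fell with the block, where DESeq2 called 5 higher, with sums of 3143 to 3410 CPM in the nucleotide libraries and 2794 to 2972 CPM in the control libraries; the neuron gene gap43 was at 0 counts. Of 14 skeletal muscle markers 10 rose with the block and 0 fell, while edgeR without the block called 0 (6 higher and 0 lower at an unadjusted p under 0.05) and DESeq2 called 5 higher. Here nucleotide library 3 stood apart with a sum of 76343 CPM, against 46068 and 46295 CPM in the other nucleotide libraries and 37224 to 46236 CPM in the control libraries. Of 14 fin and skeletal mesenchyme markers 1 fell, prrx1a, and of 9 gut, liver and pancreas markers 2 rose and 1 fell. Of 8 kidney markers 2 rose and 2 fell, and of 4 tested blood markers 1 rose and 1 fell, all with the block. For these 4 lists edgeR without the block called 0, with 1 higher and 4 lower at an unadjusted p under 0.05, and DESeq2 called 1 higher and 1 lower. The globin gene hbba1, listed under its older name ba1 and a defining marker of red cells, was at 0 counts in every library. Their part in the Hox values was not tested. Without nucleotide library 3 the Hox median was -0.10 and the ratio of the Hox sums 0.91. Leaving out this library does not test the part of any cell type.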

How the data were processed

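The authors deposited a table with read counts per gene and library, whole numbers that are not normalized, and their own comparison of the groups. Per the submitters' processing notes, TopHat2, HTSeq, DESeq2 and the build GRCz10 were named; no version, annotation or strand setting was found in these notes. Per the file headers, that comparison holds a mean normalized signal, log2 fold changes with SE, a score (Wald statistic), and p-values. The table has 14681 rows; 69 were duplicate rows of a gene and were left out.

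Genes were filtered (filterByExpr, minimum count 10, minimum total 15), scaled by TMM and tested with edgeR 4.0.16 (quasi-likelihood, 2-sided) in R 4.3.3, with Benjamini-Hochberg adjustment over 13336 genes at 0.05, all 6 libraries and group as the only term. SE is the log2 fold change over the square root of F. DESeq2 1.42.0 was an alternative. Same-numbered libraries of the groups correlated at 0.546, 0.625 and 0.617 over all genes, above 0.1 in every pair. Blocked values therefore stand beside calls they change. The replicate numbers come from the sample titles, which do not say that same-numbered libraries belong together. That reading rests on the counts. The library names of the nucleotide and control pools share a number in replicates 2 and 3 but not in replicate 1.

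The members and lists were chosen with earlier results of these data known. Genes named with values were the Hox genes called in either fit, the 10 with the smallest p, the 10 with the highest CPM, the highest of each cluster and paralog group and the pairs of duplicates, and up to 3 genes per partner list by p; other genes with values were chosen after those were seen. The table held 10 of 14 listed cofactors, 11 of 11 ParaHox and flanking, 26 of 37 Polycomb, 11 of 22 Trithorax, 28 of 28 retinoic acid and 15 of 16 axis genes. Alternatives were other scalings, filters, DESeq2, the block, and leaving out libraries.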

Additional observations from a re-analysis of the deposited data

How the results depend on the processing

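Over all genes 125 were called higher and 7 lower; 399 and 98 were called with DESeq2, and 1432 and 1118 with the replicate block (1265, 1150 and 1010 higher and 870, 862 and 661 lower without the libraries numbered 1, 2 or 3, chosen after seeing the data). Leaving out 1 library gave 39 to 79 higher and 0 to 2 lower, with fewer samples in the fit, and 11 and 18 were lower under upper quartile scaling and library totals. Of the Hox genes 0 were called lower, but 1 under upper quartile scaling, 1 under library totals, 2 with DESeq2 and 10 with the replicate block (8, 9 and 2 without number 1, 2 or 3, the 9 including hoxa1a, which is not among the 10); 0 passed with any 1 library left out, and 0 were called higher in any setting. The Hox median stayed below 0 in all 16 alternatives, at -0.27 under library totals and between -0.21 and -0.10 with libraries left out. The ratio of the Hox sums was 0.811 under library totals and 0.865 to 0.91 with 1 library left out. The groups did not overlap in any of these settings. Leaving out a library can hardly make groups overlap that are apart with all libraries, so it does not test that gap. None of the 11 Hox genes with an unadjusted p under 0.05 or a blocked call changed direction, and none passed with 1 library left out. These 11 were picked for small p-values in the same libraries, so their steady direction follows largely from that choice. For the other 37 genes, 64 of 592 values changed sign, all of genes that were not called. Depth limits the 8 genes under 5 CPM most.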
